A study of Apis mellifera with 4 samples.

Results

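Genes of the vacuolar proton pump, of autophagy and of the lysosomal cathepsins were followed in honeybee (Apis mellifera) larvae that were becoming queens or workers. Members were all genes of the table of 11156 annotated genes whose name begins with Vha, with Atg and a digit, or with cath. This rule was met by 15 genes. They were 6 pump subunits, 8 autophagy genes and 1 cathepsin, cathD. The HTS data came from whole larvae 60 hours old, in 2 queen samples and 2 worker samples, and each sample was a pool of 20 larvae from mothers inseminated by a single drone. Queen larvae had been grafted at hatching into queen cells of a hive without a queen, and worker larvae stayed ungrafted and were reared in another hive, so that caste, grafting and hive cannot be told apart.

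The vacuolar ATPase is a rotary enzyme that splits ATP in its cytosolic V1 part and moves protons through its membrane V0 part, which acidifies lysosomes and endosomes and energises the membranes of the insect gut and Malpighian tubules. In autophagy a double membrane closes around cytoplasm and fuses with the lysosome, where the acid set up by the pump lets cathepsins digest the contents. In insects the larval fat body, the store for lipid and hexamerin proteins, is a well known site of autophagy.

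The exons of all genes received 5219511 and 4949093 reads in the queen samples, against 5476218 and 5243286 reads in the worker samples. The 10 most abundant genes held 6.88% and 7.02% of these reads in queens, against 24.9% and 23.4% in workers. The read counts were therefore compared with TMM factors, which set the bulk of the genes level between libraries, and levels are given as RPKM (reads scaled by exon length and library depth) with the same factors. A gene was called when edgeR's quasi-likelihood test gave it an adjusted p below 0.05 over 7833 tested genes. The median log2 fold change (queens over workers) of all tested genes was 0.01 with TMM factors and 0.55 with library totals alone, and this shift bears on every small fold change given here. Whole larvae mix all tissues, so that fewer cells of a type and less RNA per cell cannot be told apart. Of the markers of tissues, all 6 fat body genes were called higher in workers (background 12.0% of all tested genes). The fat body genes had a summed level of 8977 and 10046 scaled RPKM in queens against 113758 and 105420 in workers. Of 8 tested muscle genes (10 in the list), 6 were called higher in workers (background 12.0%). The muscle genes had a summed level of 777 and 734 scaled RPKM in queens against 1948 and 2076 in workers. Of 2 tested silk gland genes (4 in the list) 1, Fibroin3, was called higher in queens (background 6.33%). Of 5 tested nervous system genes (13 in the list) 1, Syx1A, was called higher in workers (background 12.0%). Neither of 2 haemocyte genes was called. The part of these tissues in the results that follow was not tested.

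The cathepsin D gene carried by far the widest caste difference among the 15 genes. Its level was 14.5-fold higher in workers, whereas the pump subunits and autophagy genes differed by at most 1.53-fold. Of the 15 genes, 5 were called higher in workers (cathD, Vha13, VhaAC39, Vha16 and Atg9), against a background of 12.0% of all tested genes. None was called higher in queens, against a background of 6.33%, and none of the members had an unadjusted p below 0.05 in that direction. With DESeq2, 0 members were also called higher in queens, but with library totals alone 8 of the 15 were (background 47.3%). The plot of levels by sample shows all 15 genes.

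**Figure D1:**
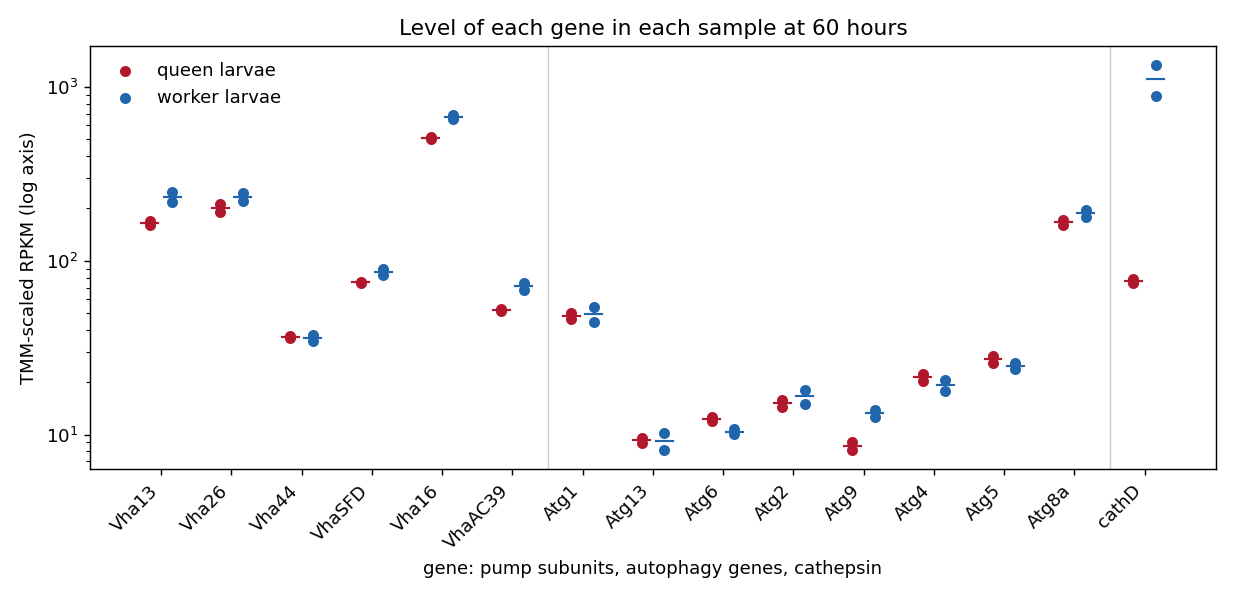
TMM-scaled RPKM (log axis) of the 15 genes in queen samples (red, left) and worker samples (blue, right) at 60 hours; each point is 1 sample and each short line the mean of 2. The cathD points of queens lie at 74.3 and 78.6 and those of workers at 882 and 1333, while the points of most other genes lie close together.

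Cathepsin D is the aspartic protease of the lysosome, made as a precursor that matures at acid pH. The cathD gene (Amel_4.5 scaffold NW_003378041, bases 718789 to 723022, 8 exons) had 867 and 858 exon reads in queens, against 7358 and 10687 reads in workers. Its scaled level was 74.3 and 78.6 RPKM in queens, against 882 and 1333 RPKM in workers. Both worker samples lay far above both queen samples, and worker sample 2 lay above worker sample 1 by more than the queen samples differed from each other.

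The mean level of cathD was 76.5 ± 3.05 RPKM in queens and 1107 ± 319 RPKM in workers (SD, n = 2 each). The log2 fold change was -3.86 ± 0.23 (SE), a 14.5-fold higher level in workers, with an adjusted p of 7.6e-04 from edgeR. The study also lists cathD as higher in workers, from these HTS data and from its microarrays, so that the direction here is not a new result. The fold change that the study gives from HTS is smaller and came from the authors' own comparison. By log2 fold change cathD ranked 39 from the lowest of 7833 tested genes. By exon reads, cathD was the 1218th and 1153rd gene in queens, against the 79th and 40th in workers. The call held under all 17 alternatives, with log2 fold changes of -4.13 to -3.30. Median read depth along the transcript, a readout that a few high positions do not move, was 19 in each queen sample, against 166 and 276 in the workers.

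Some of the cathD reads matched more than 1 place in the genome, and 69.2% were single-match reads. The single-match share was 70.4% and 72.3% in queens, against 68.7% and 69.3% in workers, so that it was alike in both castes. The reads lay almost entirely on exons, with intron reads at 2.58% and 1.83% of gene reads in queens, against 0.30% and 0.21% in workers. In number, the intron reads were 23 and 16 in queens, against 22 and 23 in workers, while the exon reads differed several-fold. At its ends cathD overlaps DLC-D by 211 bases and LOC412082 by 1478 bases. Neither neighbour was called, with log2 fold changes of 0.09 (adjusted p = 0.61) and -0.27 (adjusted p = 0.38) from edgeR.

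The level of cathD was also set against the other members of the same library, a ratio that does not depend on the scaling between libraries. The ratio of cathD to the 6 pump subunits summed was 0.073 and 0.074 in queens, against 0.67 and 1.00 in workers. The ratio of cathD to Atg8a was 0.43 and 0.49 in queens, against 4.93 and 6.80 in workers. In both ratios the worker samples lay many times above the queen samples, and the castes did not overlap. Set against the 6 fat body markers, which were themselves higher in workers, the ratio of cathD gave no single direction. Over the hexamerin HEX70b, a storage protein of larval blood, it was 0.0106 and 0.010 in queens, against 0.0128 and 0.0204 in workers, and over Rfabg, the lipid carrier of the blood, it was 0.156 and 0.161 in queens, against 0.460 and 0.736 in workers. In these ratios the workers were higher. Over the hexamerin Hex110 the ratio was 0.0788 and 0.0706 in queens, against 0.0293 and 0.0497 in workers, and over Hex70a it was 0.385 and 0.439 in queens, against 0.186 and 0.315 in workers, so that here the workers were lower. Over Hex70c the castes overlapped, and over the yolk protein Vg, with 2 and 8 reads in queens, the workers were again lower. With 2 samples a caste an exact permutation test of such a ratio cannot give a p under 0.333, and none was run.

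The order of levels differed between castes mainly through cathD. In both queen samples Vha16 had the highest level of the 15 genes and cathD stood in place 6 and 5. In both worker samples cathD came first and Vha16 second. Vha26, Vha13 and Atg8a held the next places in all 4 samples, in an order that changed between samples of the same caste. At the low end stood Atg6, Atg9 and Atg13, all between 8.16 and 13.9 RPKM.

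Of the 6 proton pump subunits, 3 were called higher in workers (background 12.0%), and 5 of 6 had both queen samples below both worker samples. Over the 6 pump genes the median log2 fold change was -0.30, beside 0.01 for all tested genes. Scaled by library totals only, 2 pump genes passed as higher in queens (background 47.3%) and none as higher in workers (background 6.20%). Across all 15 genes, 8 had both queen samples below both worker samples (background 32.1%), 2 had both above (background 31.7%) and 5 overlapped. The fold changes of all members are drawn with their standard errors.

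**Figure D2:**
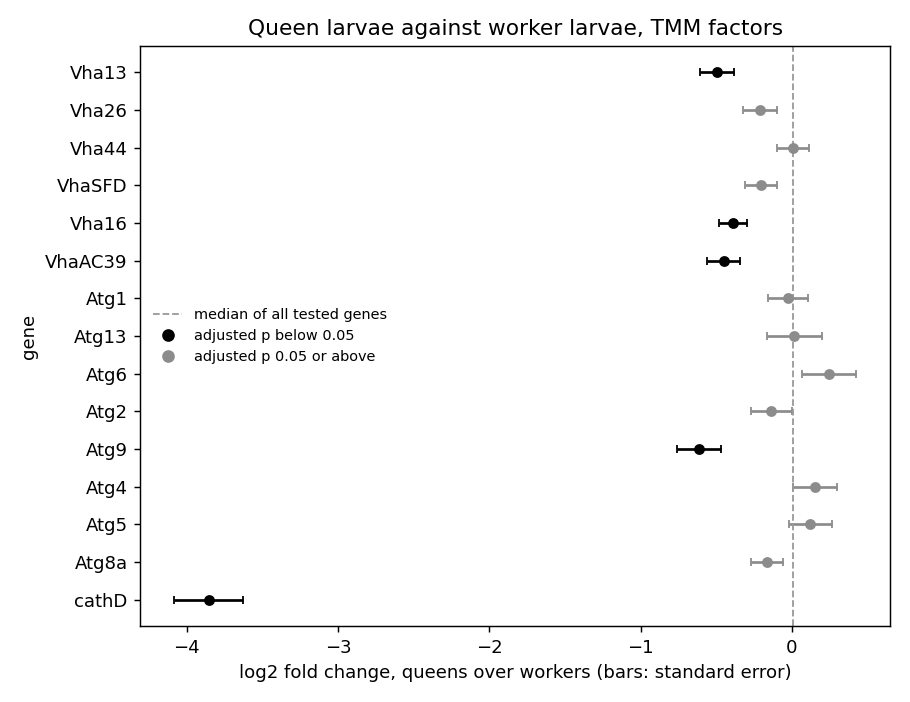
Log2 fold change of queens over workers for the 15 genes, with the standard error from edgeR as bars and the median of all tested genes (0.01) as a dashed line. Black points passed an adjusted p of 0.05; cathD stands at -3.86, the other 4 called genes between -0.62 and -0.39, and the remaining 10 between -0.21 and 0.25.

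The 4 measured V1 genes code for subunits of the stalks and the regulatory arm around the ATP-splitting core. Vha26 codes for subunit E and Vha13 for subunit G, which together form the outer stalks in Drosophila and other animals. Vha13 (scaffold NW_003378093, bases 32268 to 35049, 4 exons) had a scaled level of 161 and 169 RPKM in queens, against 218 and 248 RPKM in workers. The queen samples lay close together and below both worker samples. Its log2 fold change was -0.49 ± 0.11 (SE, adjusted p = 0.038 from edgeR), and all of its reads were single-match reads. Vha26, the partner in the stalk and the V1 gene with the highest mean level, was at 190 and 212 RPKM in queens, against 220 and 245 RPKM in workers. The queen samples of Vha26 were again the lower ones, but sample 2 of the queens lay near sample 1 of the workers. The log2 fold change of Vha26 was -0.21 ± 0.11 (SE, adjusted p = 0.26), which did not pass the test.

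Vha44 codes for subunit C, which detaches when the pump is taken apart, and VhaSFD for subunit H, which blocks ATP use by free V1. Vha44 had a log2 fold change of 0.01 ± 0.11 (SE, adjusted p = 0.97 from edgeR), with 36.7 and 35.9 RPKM in queens, against 34.7 and 37.5 RPKM in workers, and the samples of the castes overlapped. Its 95% interval reached from -0.20 to 0.21, so that a difference of the size seen for Vha13 lay outside it. VhaSFD had a log2 fold change of -0.20 ± 0.10 (SE, adjusted p = 0.23), with 75.3 and 74.8 RPKM in queens, against 82.8 and 89.9 RPKM in workers. The ratio of Vha13 to Vha44 within a library was 4.40 and 4.72 in queens, against 6.28 and 6.61 in workers, without overlap. This pair joins the V1 genes with the lowest and the highest log2 fold change, so that a gap follows from the choice. The ratio of the V0 gene VhaAC39 to Vha44 was 1.43 and 1.44 in queens, against 2.14 and 1.82 in workers. VhaAC39 was called and Vha44 had the highest log2 fold change of the pump genes, so that this gap too follows from the choice. The ratio of the V0 gene Vha16 to Vha13, both called, overlapped, with 3.12 and 3.05 in queens, against 3.14 and 2.62 in workers. Vha44 has 3181 bases of annotated exon but a median read depth of only 1 to 2, against 48 to 63 for Vha26, so that its reads are spread unevenly over its exons.

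The V0 part was represented by Vha16, the proteolipid c subunit whose ring carries the protons, and by VhaAC39, the d subunit that joins the ring to the central shaft. Vha16 (scaffold NW_003378017, bases 30814 to 34791, 3 exons) was at 503 and 516 RPKM in queens, against 686 and 649 RPKM in workers. VhaAC39 (scaffold NW_003378170, bases 501341 to 504507, 6 exons) was at 52.5 and 51.6 RPKM in queens, against 74.2 and 68.2 RPKM in workers. For both genes the queen samples were nearly equal and lay below both worker samples. The log2 fold change was -0.39 ± 0.09 for Vha16 (SE, adjusted p = 0.045) and -0.45 ± 0.11 for VhaAC39 (SE, adjusted p = 0.044), both from edgeR. The ratio of Vha16 to VhaAC39 was 9.58 and 10.004 in queens, against 9.25 and 9.52 in workers, so that the ratio of these V0 genes was much the same in all 4 libraries. VhaAC39 and VhaSFD lie on the same scaffold, 183737 bases and 30 genes apart, and the 15 members were spread over 14 scaffolds.

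The 3 pump calls rested on the scaling of the libraries. In reads, Vha13 had 1200 and 1178 in queens, against 1161 and 1267 in workers. Vha16 had 1854 and 1780 reads in queens, against 1810 and 1645 in workers, and VhaAC39 had 522 and 480 in queens, against 528 and 466 in workers. As a share of all reads these genes were thus alike in both castes, or a little higher in queens, and the call says that they lay below the bulk of the genes in queens. With library totals alone their log2 fold changes were 0.04, 0.15 and 0.09, none called. Under that scaling 1 of the 15 genes, cathD, was called higher in workers (background 6.20%). A scaling moves nearly all genes by the same amount, so that a gene's distance from the median of all tested genes is fixed whichever scaling is used (range at most 0.0064 on the log2 scale over 5 scalings), which says nothing about the stability of the difference. Vha13 lay 0.50 below that median, VhaAC39 0.46 below it and Vha16 0.40 below it.

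**Figure D3:**
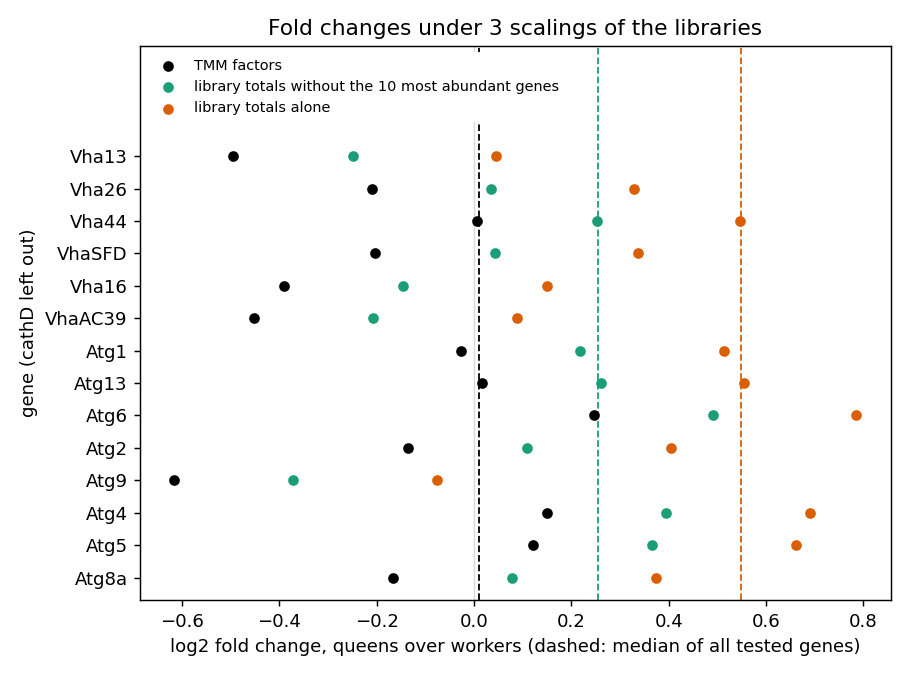
Log2 fold changes of queens over workers for 14 genes (cathD left out) under 3 scalings of the libraries, each with the median of all tested genes under that scaling as a dashed line. Every gene moved with the dashed line; Vha13 moved from -0.49 with TMM factors to 0.04 with library totals alone, while the median moved from 0.01 to 0.55.

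The DESeq2 Wald test called the same 5 members higher in workers, with an adjusted p of 0.0060 for Vha13, 0.011 for Vha16 and 0.045 for VhaAC39. In edgeR the calls of the pump genes were near the threshold. Without any 1 of the 4 samples in turn, cathD was the only member still called, and the log2 fold changes then ranged from -0.59 to -0.40 for Vha13, from -0.43 to -0.35 for Vha16 and from -0.51 to -0.39 for VhaAC39.

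Reads in introns set Vha16 apart from the other 14 genes. Of the reads on the Vha16 gene, 55.4% and 57.0% lay outside its annotated exons in queens, against 54.2% and 57.7% in workers. The shares were alike in both castes. No other member exceeded 8.38% over the 4 samples, and the median of all tested genes was 5.70%. Of all tested genes, 6.49% had more than 50% of their reads outside the annotated exons, so that Vha16 was not alone in the genome. Between 363 and 444 reads per sample crossed an exon border into an intron of Vha16, and the deposited table counts 2 putative further exons in it. Its annotated exons span 582 bases, and the scaled level of Vha16 counts only reads on these.

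**Figure D4:**
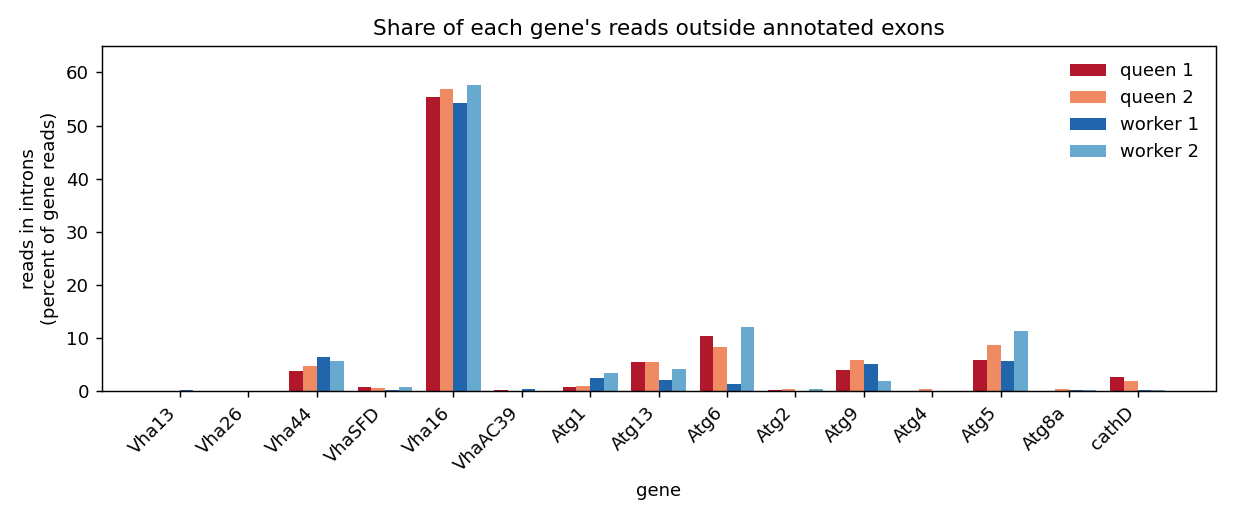
Percent of each gene's reads that lay outside its annotated exons, 1 bar per sample, with queens (red shades) left of workers (blue shades). Vha16 stands between 54.2% and 57.7% in the 4 samples, and no other member exceeded 8.38% over the 4 samples pooled.

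The 8 autophagy genes showed little difference between the castes at this depth. Of these genes 1, Atg9, was called higher in workers (background 12.0%) and none higher in queens (background 6.33%), and their median log2 fold change was -0.01, beside 0.01 for all tested genes. Of the 8 genes, 4 had overlapping samples, 2 had both queen samples above the workers (background 31.7%) and 2 had both below (background 32.1%), so that these counts were near the shares of all tested genes. Scaled by library totals only, 6 autophagy genes passed as higher in queens (background 47.3%) and none higher in workers. The sum of the 8 genes over the sum of the 6 pump subunits was 0.311 and 0.284 in queens, against 0.251 and 0.247 in workers. Atg8a makes up much of the autophagy sum and Vha16 much of the pump sum. Taken singly over the pump sum, 6 of the 8 genes were higher in both queen samples than in both worker samples, Atg2 overlapped, and Atg9 was lower, with 0.0080 and 0.0086 in queens, against 0.0106 and 0.0094 in workers. The pump genes themselves had a median log2 fold change of -0.30, so that a gene level between castes gives a higher ratio in queens. The share of all tested genes with such a ratio was not counted, and these ratios were not tested.

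Atg1, the kinase that starts autophagy, and Atg13, its regulatory partner, overlapped between castes. Atg1 had a level of 50.1 and 46.5 RPKM in queens, against 54.0 and 44.5 RPKM in workers. Its log2 fold change was -0.03 ± 0.13 (SE, adjusted p = 0.91 from edgeR). Atg13 had a log2 fold change of 0.02 ± 0.18 (SE, adjusted p = 0.96) and few reads, between 96 and 157 per sample. In both genes the worker samples differed from each other more than the caste means did.

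Atg6, the beclin subunit of the lipid kinase complex that marks the growing membrane, had the highest log2 fold change of the 15 genes, 0.25 ± 0.18 (SE, adjusted p = 0.39 from edgeR). Its level was 12.0 and 12.6 RPKM in queens, against 10.7 and 10.1 RPKM in workers. Both queen samples lay above both worker samples, but the difference did not pass the test, and the gene had only 65 to 113 reads per sample.

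Atg9, the membrane protein whose vesicles seed the autophagosome, was the autophagy gene that was called. Atg9 (scaffold NW_003377939, bases 573778 to 580160, 8 exons) had 198 and 206 reads in queens, against 241 and 209 reads in workers. Its scaled level was 8.16 and 9.08 RPKM in queens, against 13.9 and 12.5 RPKM in workers, and with TMM factors the castes did not overlap. The log2 fold change was -0.62 ± 0.14 (SE, adjusted p = 0.042 from edgeR). Its deposited RPKM, without TMM factors, was 8.35 and 9.13 in queens, against 9.97 and 8.80 in workers, and overlapped. With library totals alone the log2 fold change of Atg9 was -0.08 and was not called, so that this call too rested on the scaling. Atg2, the lipid transfer protein that works beside Atg9, did not pass the test, with a log2 fold change of -0.14 ± 0.14 (SE, adjusted p = 0.53). The ratio of Atg9 to Atg2 was 0.517 and 0.631 in queens, against 0.765 and 0.837 in workers. Atg9 had the lowest log2 fold change of the autophagy genes, so that a gap follows from the choice.

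Counting is less certain for Atg9 than for the other called genes. The annotation places LOC725967 over 2693 and LOC100577665 over 1855 of the 6383 bases that Atg9 spans. LOC725967 itself went the other way and was called higher in queens, at a log2 fold change of 1.85 ± 0.39 (SE, adjusted p = 0.032 from edgeR). Of the Atg9 reads, 61.5% were single-match reads, and with these reads alone the log2 fold change was -0.41 and was not called. The strand of the counting is not given in the sources used here, so reads of overlapping genes may be shared. The part of the overlap in the Atg9 result was not tested. Of the 15 members, 12 overlap another annotated gene, with Atg4, Atg5 and Vha16 as the exceptions, and the single-match share was also low for Atg6 at 75.3% and Atg8a at 85.6%.

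In the conjugation step, Atg8a is the ubiquitin-like protein that is joined to lipid on the autophagosome, Atg4 is the protease that prepares it, and Atg5 is part of the complex that attaches it. None of the 3 genes was called. Atg8a had the highest level of the autophagy genes, with 172 and 161 RPKM in queens, against 179 and 196 RPKM in workers. The queen samples were the lower ones, but the log2 fold change of -0.17 ± 0.11 (SE, adjusted p = 0.33 from edgeR) did not pass the test. Atg4 had a log2 fold change of 0.15 ± 0.15 (SE, adjusted p = 0.52) and overlapped between castes. Atg5 had a log2 fold change of 0.12 ± 0.14 (SE, adjusted p = 0.60), with both queen samples above both worker samples.

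Of 3 related genes that the study names, cathepsin L-like LOC552756 and lysosome membrane protein 2-like LOC100577943 were tested. Both were called higher in workers (background 12.0%). The study lists all 3 among its differentially expressed genes, mostly as higher in workers, and LOC409517 also from these HTS data. They were thus chosen by such a difference, and their direction here is a description only. LOC552756 had 144 and 162 scaled RPKM in queens, against 207 and 232 scaled RPKM in workers, with a log2 fold change of -0.52 ± 0.12 (SE, adjusted p = 0.040 from edgeR). Its deposited RPKM, without TMM factors, was 147 and 163 in queens, against 149 and 163 in workers, so that this call too rested on the scaling. LOC100577943 had 64 and 73 reads in queens, against 88 and 107 in workers, with a log2 fold change of -0.97 ± 0.23 (SE, adjusted p = 0.041). With library totals alone neither of these genes was called. Single-match reads made up 73.9% of the reads of LOC552756 and 54.8% of those of LOC100577943, so that their counting is less certain too. The third gene, LOC409517 (counting factor associated protein D-like), has an exon length of 0 in the table and therefore no exon reads. Its gene reads were 1035 and 1050 in queens, against 3530 and 4263 in workers, with no overlap. In a fit of all gene reads its log2 fold change was -2.34 ± 0.14 (SE, adjusted p = 7.3e-04 from edgeR, over 8666 genes).

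Another 15 genes of autophagy and the lysosome were picked by symbol from the gene table. Of these 1 was called higher in workers (background 12.0%) and none higher in queens (background 6.33%), the median of their log2 fold changes stood at -0.14, and 5 of 15 had an unadjusted p below 0.05, near the background of 34.1%. The called gene was Sap-r, the saposin precursor whose products present lipids to lysosomal enzymes, at 84.5 and 86.0 RPKM in queens, against 157 and 158 RPKM in workers. Both castes were tight, and the log2 fold change was -0.88 ± 0.09 (SE, adjusted p = 0.0038 from edgeR). With library totals alone 7 of the 15 genes were called higher in queens, near the background of 47.3%. Sap-r was still called higher in workers (background 6.20%). Among those that did not pass the test were the mTOR kinase Tor at 0.43 (adjusted p = 0.082), its activator RagA at -0.52 (adjusted p = 0.078), the transcription factor foxo at -0.52 (adjusted p = 0.064) and the cargo receptor ref(2)P at -0.35 (adjusted p = 0.10). Aut1, a fly name for the conjugating enzyme Atg3, had a log2 fold change of 0.17 (adjusted p = 0.39).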

How the data were processed

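HTS was carried out by the study on 4 pools of whole larvae (2 queen, 2 worker samples, grouped and numbered by their labels), with 50 bp reads. Mapping by the authors was to Amel_4.5 in CLC Genomics Workbench, and the deposited counts per gene are of exon reads, gene reads and single-match reads. The deposited RPKM were made by the authors from exon reads and exon length, and their median coverage per gene is a deposited signal. Other deposited columns give lengths, positions and numbers of exons. Deposited fold changes, p-values and a table of transcripts chosen by them hold the authors' own comparison, and none of these tests was used.

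Exon read counts of all genes were tested in edgeR 4.0.16 (R 4.3.3) by the quasi-likelihood test after filterByExpr, with TMM factors and no block, and adjusted p-values (Benjamini-Hochberg) below 0.05 were called. All 15 members passed the filter. SEs came from the fold change and F statistic. The interval given for Vha44 is 1.96 SE to each side, which is narrower than a 95% interval of that test. Scaled RPKM used exon reads, exon length and TMM-scaled totals. The test was tried on simulated data. Alternatives used other scalings, filters and reads, DESeq2 1.42.0, limma 3.58.1 on log2 RPKM (genes of at least 1 RPKM in 2 samples), the replicate number as a block and fits without each sample. Median member SE was 0.13. The p-values rest on the spread between 2 pools a caste, with the spread of each gene drawn toward that of all tested genes.

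The members and lists were chosen with earlier results of these data known. Every member is named, and called members and the highest of each class are given for each sample. The 15 further genes were chosen by symbol after the table had been seen. Markers were matched by symbol. No promoter, protein or transcript sequence was used here, and the planned count of promoter motifs was not run.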

Additional observations from a re-analysis of the deposited data

How the results depend on the processing

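Of the 15 genes, cathD kept its call in all 17 alternatives. The 5 members called higher in workers became 1 (cathD) with library totals alone, with library totals without the 10 most abundant genes, with no filter beyond a total of 1 read, with either limma fit and with an adjusted p below 0.01. They became 2 with upper-quartile factors, 3 with all gene reads (an alternative chosen after seeing the data), and 1 to 1 without any 1 sample. In fits that leave a caste with 1 sample, the lone sample is assumed to vary like the other caste. Of the members, 8 were called higher in queens with library totals alone and 4 with limma on log2(RPKM + 1) or log2(RPKM + 0.1). All tested genes called, 496 higher in queens and 942 in workers, became 3704 and 486 with library totals alone, 3327 and 478 with limma on log2(RPKM + 1), 2990 and 453 with limma on log2(RPKM + 0.1), and 77 and 381 with an adjusted p below 0.01. Without the 10 most abundant genes 1427 were called higher in queens. Without 1 sample the counts ranged from 44 to 444 higher in queens and from 254 to 870 higher in workers. The cause was not tested beyond the scaling itself.

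The members' median log2 fold change of -0.17 became 0.37 with library totals alone, 0.079 without the 10 most abundant genes, and 0.35 with limma on log2(RPKM + 1) (0.3455) and log2(RPKM + 0.1) (0.3475). Without 1 sample it ranged from -0.23 to -0.11. These genes changed sign. With library totals alone Atg1 had 0.51, Atg2 0.41, Atg8a 0.37, Vha13 0.045, Vha16 0.15, Vha26 0.33, VhaAC39 0.088 and VhaSFD 0.34. Without the 10 most abundant genes Atg1 had 0.22, Atg2 0.11, Atg8a 0.079, Vha26 0.0345 and VhaSFD 0.0425. With limma on log2(RPKM + 1) Atg1 had 0.48, Atg2 0.36, Atg8a 0.35, Vha13 0.0214, Vha16 0.12, Vha26 0.30, VhaAC39 0.0621 and VhaSFD 0.31. With limma on log2(RPKM + 0.1) Atg1 had 0.49, Atg2 0.38, Atg8a 0.35, Vha13 0.0216, Vha16 0.12, Vha26 0.30, VhaAC39 0.0633 and VhaSFD 0.31. Atg1 had 0.013 with upper-quartile factors and 0.0000 with single-match reads. Without 1 sample Atg1 ranged from -0.16 to 0.12, Atg13 from -0.14 to 0.18, Atg2 from -0.27 to 0.0082 and Vha44 from -0.0493 to 0.0626.

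Same-numbered samples did not deviate together (r = -0.06 across 6366 genes), and the labels do not say that a number marks shared larvae. With a replicate block 2 members, Vha13 and cathD, were called higher in workers, and 408 and 822 of all genes were called higher in queens and in workers. Members with few reads, such as Atg6 and Atg13, have SEs of 0.18, so that only wider differences would be detectable.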

Other observations

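The deposited table of transcripts, which holds only transcripts that the authors list as higher in queens, contains 2 transcripts of the members. Transcript 1 of Atg8a had 1400 and 1225 reads in queens, against 1041 and 1094 reads in workers, which is nearly all reads of the gene. Transcript 2 of Vha26 had 226 and 229 reads in queens, against 159 and 160 reads in workers. As a share of the exon reads of Vha26 this was 16.8% and 16.4% in queens, against 14.3% and 13.4% in workers. These reads are not scaled. With TMM factors the log2 fold changes of the whole genes were -0.17 for Atg8a and -0.21 for Vha26, neither called. With library totals alone they were 0.37 and 0.33, so that the direction depends on the scaling. The table was chosen by this difference, so the values are a description and were not tested.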
